A study of Mus musculus with 3 samples.

Results

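Insulin-like growth factor (IGF) signalling genes were examined in endothelial cells of the adult mouse kidney cortex. They comprised the ligand genes Igf1 and Igf2, the receptor gene Igf1r, and the genes of the binding proteins Igfbp1 to Igfbp7. These 10 genes were taken by name out of 19938 genes that the array reads with a probeset of a single gene, and each of the 10 had 1 such probeset. The cells came from adult Tie2-GFP mice, Tg(TIE2GFP)287Sato, of a mixed and mainly CD-1 background with unknown sex. In these mice GFP follows the Tie2 (Tek) promoter, which is active in endothelium and also in some blood cells, so that the sort by itself does not exclude such cells. Replicates 1, 2 and 3 form 1 group with no group to compare it with. Each was the cortex of 1 kidney, digested with 1% collagenase A, strained on 100 and 40 µm meshes to hold back glomeruli, digested again with trypsin and sorted for GFP, and its RNA went through 1 round of amplification. The study describes its samples as independent biological samples, but the labels do not say whether the kidneys came from different mice, so the p-values measure only the spread between these 3 samples, which may be technical.

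IGF1 and IGF2 are small secreted proteins related to insulin that promote cell growth and survival. They act mainly through the IGF1 receptor, a tyrosine kinase that signals through adaptor proteins to PI3K and Akt. Most IGF in body fluids is held by secreted binding proteins, which prolong its life and limit or deliver it to the receptor. IGFBP1 to IGFBP6 bind IGFs tightly, while IGFBP7 binds them weakly and is known as a protein of the vessel wall. In the kidney the system is known for its part in growth and in glomerular filtration.

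The deposited values are log2 signals, 1 per probeset and array. With 1 group, the point of reference was a signal of 100, taken from the filter in the study's methods. Each probeset was tested for a higher mean and for a lower mean than this limit with limma's one-sided moderated test. The p-values were adjusted by Benjamini-Hochberg across the 35557 probesets of the array, and genes with an adjusted p under 0.05 were called. Signals of different probesets are not on a common scale, so each gene is set only against this limit and against its own values in the other samples. In 51.2% of the 19938 genes the 3 samples held the same value to 5 decimals, so that the SD is 0.00 and the p very small. The test was therefore repeated with such probesets given the median SD of the probesets whose values differ, called the borrowed spread here. Probesets with 2 equal values, 23.5% of all, kept their own SD and count in that median. Igf2, Igfbp3 and Igfbp6 are among them.

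The cells carried endothelial transcripts, with 10 of 10 endothelial markers above the limit, among them Pecam1, Cdh5, Tek and Kdr. The summed signal of the 10 was 12072, 12565 and 10100 in replicates 1, 2 and 3. Tubule markers were present too, and the paper reports a minor contamination of its cortical cells with a proximal tubule profile. For the proximal tubule 8 of 10 markers were above the limit (Lrp2, Cubn and Slc34a1 among them, summed signal 11769 to 13936, with Slc5a2 and Slc7a13 neither), for the thick ascending limb 2 of 5 (Umod and Slc12a1, 2092 to 3639) and for the distal convoluted tubule 3 of 4 (Slc12a3, Pvalb and Calb1, 1004 to 1583). Of 8 markers of smooth muscle and pericytes 1 was above (Rgs5), and their summed signal was 1671, 1677 and 3549. With the borrowed spread, 3 of these 8 were above (Acta2 and Myh11 in addition), as were 10 of 10 proximal tubule and 3 of 5 thick ascending limb markers. Of 6 fibroblast markers 1 was above (Col1a1, at a log2 signal of 6.92 in each sample, and not above with the borrowed spread) and 5 were below. Of 5 collecting duct markers 0 were above and 2 were below (Avpr2 and Slc4a1, and only Avpr2 with the borrowed spread). Aqp2, Aqp3 and Atp6v1g3 were neither, and the summed signal of the list was 871, 549 and 1527. Aqp2 (110, 110 and 129) and Atp6v1g3 (502, 197 and 1120) exceeded 100 in every sample. The mean of Atp6v1g3 was 4.81 times the limit, with a wide spread (adjusted p = 0.14 from limma). Macrophage markers were below in 6 of 7 (Cx3cr1 was neither), lymphocyte markers in 4 of 4, podocyte markers in 3 of 3 and lymphatic markers in 3 of 3. Beside these counts, 22.9% of all genes were above the limit and 65% were below it. With the borrowed spread these shares were 21.1% and 62.2%. Most genes were thus below, and in lists this short the counts below do not show that such cells were absent. The summed signal was 276 to 292 for macrophage, 98 to 102 for lymphocyte and 171 for podocyte markers. Each sum adds probesets that are not on a common scale, so it is read only between samples of its own list and gives no share of cells. Single genes weigh heavily in some sums, with Kap at 8360, 7550 and 6570 for the proximal tubule and Umod at 2050, 1290 and 1930 for the thick ascending limb. Which of these cells the IGF transcripts came from was not tested, and in such bulk samples fewer cells of a type and less RNA per cell cannot be told apart.

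Of the 10 IGF genes, 5 were above a signal of 100, 4 were below it and 1 was neither. Those above were Igf1r, Igfbp3, Igfbp4, Igfbp5 and Igfbp7, those below were Igf1, Igfbp1, Igfbp2 and Igfbp6, and Igf2 was neither. Leaving out replicate 1 gave 2 genes above, leaving out replicate 2 gave 3, and leaving out replicate 3 gave 4. Among all 19938 genes, 22.9% were above and 65% were below. With the borrowed spread, 5 of the 10 were above against 21.1% of all genes, and 4 were below against 62.2%. The median log2 signal was 7.19 over the 10 genes and 5.88 over all genes, which only describes the lists, since probesets are not on a common scale. The 10 genes are few and were chosen by name, so the shares carry no test either.

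**Figure D1:**
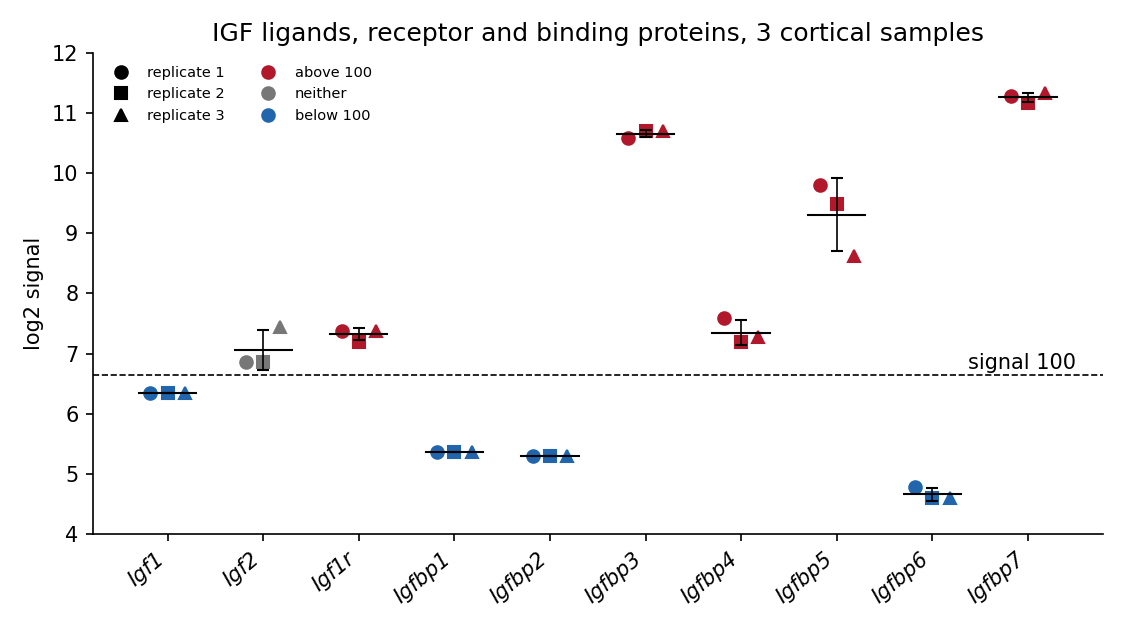
Log2 signal of each IGF gene in the 3 cortical samples (circle, square and triangle for replicates 1, 2 and 3), with the mean (line) and SD (bar, n = 3). The dashed line is a signal of 100. Igfbp3, Igfbp5 and Igfbp7 lie well above it in every sample, Igf1r and Igfbp4 lie just above it, and Igf1, Igfbp1, Igfbp2 and Igfbp6 lie below it.

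Of the ligand genes, Igf1 was called below the limit and Igf2 was called on neither side. Igf1, whose product carries much of the growth hormone effect on tissues, read 6.34 on the log2 scale in all 3 samples, a signal of 81.1 or 0.811 times the limit. It was below the limit (adjusted p = 1.29e-07 from limma), and with the borrowed spread the adjusted p was 0.0484, close to the threshold.

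Igf2, an imprinted gene best known as a fetal growth factor, read 6.86 on the log2 scale in replicates 1 and 2, and 7.45 in replicate 3. Replicate 3 was the high sample, the other two were identical, and all 3 samples exceeded the limit. The mean was 7.06 ± 0.34 (SD, n = 3), which lay 0.41 above the limit on the log2 scale with a 95% interval from -0.29 to 1.11, so that the test for a mean above did not pass (adjusted p = 0.279 from limma). Without replicate 3 Igf2 was above (adjusted p = 0.014), a value that rests on 2 identical numbers. Markers of smooth muscle and pericytes were also highest in replicate 3. Of the 8, those whose mean reached 100 were 4, and their median deviation from their own means was -0.50, -0.32 and 0.93, beside -0.20, -0.20 and 0.39 for Igf2. Acta2, the smooth muscle actin gene, had 8.43, 7.97 and 9.50, and Myh11, the smooth muscle myosin gene, had 7.79, 8.14 and 9.44. The proximal tubule marker Slc13a1 was also highest in replicate 3, with 8.54, 8.54 and 9.28, and deviated by -0.25, -0.25 and 0.49. Slc5a2 (0.10, -0.84 and 0.74), Kcnj1 (0.50, -1.33 and 0.84) and Calb1 (-0.17, -0.32 and 0.49) were highest there too. Slc7a13 (0.72, 0.31 and -1.03) and Cldn10 (0.61, 0.07 and -0.67) were lowest there. Across the 10 proximal tubule markers the median deviation was 0.10, -0.07 and 0.02. For markers with a mean of 100 or more it was 0.38, -0.34 and 0.15 in the thick ascending limb. In the distal convoluted tubule it was 0.14, -0.32 and 0.21. Of the collecting duct markers 2 had a mean of 100 or more, and neither was called above the limit. Aqp2 deviated by -0.08, -0.08 and 0.15 and Atp6v1g3 by 0.06, -1.29 and 1.22, with medians of -0.01, -0.68 and 0.68. The part of these cells in the Igf2 signal was not tested.

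The receptor gene Igf1r was above the limit, at log2 signals of 7.38, 7.20 and 7.37 in replicates 1, 2 and 3. Replicate 2 was the lowest, and all 3 samples exceeded the limit. The mean of 7.32 ± 0.10 (SD, n = 3) was 1.60 times the limit (adjusted p = 0.0118 from limma), with a 95% interval of 0.46 to 0.88 above it on the log2 scale. The adjusted p was 0.125 without replicate 1 and 0.0607 without replicate 3.

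The related receptors gave 1 call in each direction. Insr, the insulin receptor gene, read 9.98 on the log2 scale in all samples, 10.1 times the limit (adjusted p = 1.68e-06 from limma), and was also above with the borrowed spread. Igf2r, which encodes the receptor that carries IGF2 to lysosomes, had 6.94, 6.89 and 7.11, averaging 6.98 ± 0.12 (SD, n = 3). It was neither, with an adjusted p of 0.0584 on the upper side, and it was called above when replicate 3 was left out. Insrr, the gene of the insulin receptor-related receptor, had 5.34 in each and was below (adjusted p = 6.78e-10), also with the borrowed spread.

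The binding protein genes divided into 4 above the limit and 3 below it. Igfbp7 was far above it, at log2 signals of 11.28, 11.17 and 11.33, and the 3 samples lay within 0.16 of each other. Its mean of 11.26 ± 0.08 (SD, n = 3) was 24.6 times the limit (adjusted p = 0.000176 from limma).

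Igfbp3, which encodes the main carrier of IGFs in blood, had 10.59 in replicate 1 and 10.70 in replicates 2 and 3. The samples were close to each other and far from the limit. The mean of 10.66 ± 0.06 (SD, n = 3) was 16.2 times the limit (adjusted p = 0.000131 from limma). Igfbp3 and Igfbp7 were above the limit under every alternative setting tried, including a limit of 200 and each omission of 1 sample.

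Igfbp5, which encodes a binding protein that also attaches to extracellular matrix, differed between the samples. On the log2 scale replicate 1 read 9.81, replicate 2 read 9.49 and replicate 3 read 8.63, which are signals of 900, 719 and 396. Replicate 3 was the low sample, and all 3 exceeded the limit. The mean of 9.31 ± 0.61 (SD, n = 3) was 6.35 times the limit (adjusted p = 0.0263 from limma), with a 95% interval of 1.41 to 3.92 above it on the log2 scale. The adjusted p was 0.164 without replicate 1 and 0.211 without replicate 2.

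Igfbp4, whose product is cut by the protease PAPP-A to set IGFs free, had log2 signals of 7.59, 7.20 and 7.27. Replicate 1 was the highest, and each sample exceeded the limit. The mean of 7.35 ± 0.21 (SD, n = 3) was 1.63 times the limit (adjusted p = 0.0417 from limma), with a 95% interval of 0.28 to 1.13 above it on the log2 scale. This call did not hold in any pair of samples, with an adjusted p of 0.0502 without replicate 1, 0.188 without replicate 2 and 0.133 without replicate 3.

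The other 3 binding protein genes were below the limit in every sample. Igfbp1, the binding protein gene of liver and decidua, read 5.36 on the log2 scale in all samples, 0.411 times the limit (adjusted p = 7.19e-10 from limma, and 0.000774 with the borrowed spread). Igfbp2, a gene of many fetal tissues, had 5.30 in each, 0.394 times the limit (adjusted p = 6.11e-10, and 0.000682 with the borrowed spread). Igfbp6, whose product prefers IGF2 over IGF1, had 4.78 in replicate 1 and 4.60 in replicates 2 and 3, averaging 4.66 ± 0.11 (SD, n = 3), and its adjusted p from limma was 0.000398. These 3 calls held under every alternative setting tried.

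In the mouse reference assembly GRCm38.p6, Igfbp1 and Igfbp3 are next to each other on chromosome 11, and Igfbp2 and Igfbp5 are next to each other on chromosome 1, with 0 annotated genes between the members of each pair. In each pair 1 gene was above the limit and its neighbour was below it. Igfbp3 was above and Igfbp1 below, and Igfbp5 was above and Igfbp2 below. The 250 bases before the annotated start are shown for these 4 genes, because neighbours were called on opposite sides, and for Igfbp7, because it was far above the limit under every setting. The sequences are from RefSeq (GRCm38.p6), are written 5′ to 3′ on the strand of the gene, and stand in lower case. Capitals mark 3 motifs searched on both strands. The TATA box was searched as TATAAA. The GC box, a site of Sp factors, was searched as GGGCGG. The core of ETS factor sites was searched as TTCCTG.
Igfbp3, chr11:7213924-7214173, minus strand: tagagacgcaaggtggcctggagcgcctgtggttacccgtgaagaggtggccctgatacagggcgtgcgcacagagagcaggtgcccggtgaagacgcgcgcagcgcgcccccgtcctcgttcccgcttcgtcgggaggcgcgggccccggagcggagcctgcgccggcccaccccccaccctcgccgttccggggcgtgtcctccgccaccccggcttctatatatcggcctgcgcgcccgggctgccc
Igfbp1, chr11:7197537-7197786, plus strand: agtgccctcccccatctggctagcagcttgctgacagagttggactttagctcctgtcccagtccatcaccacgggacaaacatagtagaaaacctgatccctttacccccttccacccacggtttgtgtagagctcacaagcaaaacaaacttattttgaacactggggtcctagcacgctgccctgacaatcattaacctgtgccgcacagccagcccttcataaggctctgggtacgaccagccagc
Igfbp5, chr1:72874866-72875115, minus strand: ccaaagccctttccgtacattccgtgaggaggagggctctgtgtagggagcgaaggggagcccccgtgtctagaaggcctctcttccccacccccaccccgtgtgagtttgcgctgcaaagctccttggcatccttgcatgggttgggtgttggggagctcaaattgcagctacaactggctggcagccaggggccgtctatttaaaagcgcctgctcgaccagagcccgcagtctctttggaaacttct
Igfbp2, chr1:72824230-72824479, plus strand: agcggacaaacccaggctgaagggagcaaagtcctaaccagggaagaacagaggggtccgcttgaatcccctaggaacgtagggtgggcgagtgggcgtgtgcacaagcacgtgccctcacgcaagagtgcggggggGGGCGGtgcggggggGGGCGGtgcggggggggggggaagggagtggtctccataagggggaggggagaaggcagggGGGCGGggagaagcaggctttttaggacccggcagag
Igfbp7, chr5:77408046-77408295, minus strand: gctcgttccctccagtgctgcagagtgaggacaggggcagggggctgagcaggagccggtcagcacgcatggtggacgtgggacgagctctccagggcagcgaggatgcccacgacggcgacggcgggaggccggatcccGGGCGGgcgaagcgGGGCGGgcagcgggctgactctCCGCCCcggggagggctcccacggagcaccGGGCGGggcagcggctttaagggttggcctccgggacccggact

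None of the 3 motifs was found in the windows of Igfbp3, Igfbp1 and Igfbp5, while the window of Igfbp2 shown here held 3 GC boxes and that of Igfbp7 held 4. All 10 IGF genes matched the RefSeq table by symbol, with 14 windows, since Igf2 and Igfbp2 have several starts. The TATA box letters were found in 2 of the 14, the GC box in 5 and the ETS core in 3. The TATA match of Igfbp4 starts at -28, and that of Igfbp6 starts at -148 and reads TTTATA, on the other strand. Only exact letters were counted, so variants of a motif were not searched. Among all 32851 windows of this length, 12.4% held the TATA box, 32.7% the GC box and 25.7% the ETS core. Genes above and below the limit were found with and without GC boxes, and a match is only a match of letters.

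Spread between the samples was uneven among the IGF genes. Igf1, Igfbp1 and Igfbp2 had 3 identical values, Igf2, Igfbp3 and Igfbp6 had 2 identical values, and the other 4 genes had 3 different ones. The median SD of the 6 IGF genes with a mean of 100 or more was 0.16 on the log2 scale, and that of the 6127 such genes on the array was 0.10. Of these 6127 genes 27.5% had 3 identical values, which lowers their median, while each of the 6 IGF genes had values that differ. The genes with identical values are also counted in the range shares that follow. Only Igfbp5 and Igf2 differed by 0.5 or more between their highest and lowest sample, with ranges of 1.18 and 0.59. A range at least as wide was found in 6.76% of the 6127 genes for Igfbp5 and in 22.4% for Igf2. Between replicates 1 and 2, 5 of the 10 genes were higher in replicate 1, 1 was lower and 4 were identical. Between replicates 2 and 3, 1 was higher in replicate 2, 4 were lower and 5 were identical.

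Igfbp5 and Igf2 went opposite ways in replicate 3. The deviation of Igfbp5 from its own mean was 0.50, 0.18 and -0.68, and that of Igf2 was -0.20, -0.20 and 0.39. The median deviation of the 10 endothelial markers was 0.06, 0.02 and -0.11. Kdr, a VEGF receptor gene of endothelium, had log2 signals of 9.72, 9.70 and 8.79, also lowest in replicate 3. Lowest there too were Emcn (11.56, 11.96 and 11.17), Icam2 (9.13, 9.12 and 8.68) and Egfl7 (10.03, 10.03 and 9.76). The same held for Tek (10.55, 10.44 and 10.24) and, by a small margin, Pecam1 (10.09, 10.09 and 10.05). Cdh5 read 10.62 in each sample. Flt1, another VEGF receptor gene, had 10.47 in every sample. Among other endothelial markers, Tie1 was highest in replicate 3 (8.20, 8.06 and 8.24) and Eng was lowest in replicate 2 (9.52, 8.60 and 9.00). Single tubule markers were lowest in replicate 3 too, such as Slc7a13 (9.75, 9.34 and 8.00) and Cldn10 (8.73, 8.19 and 7.45), while Slc13a1 was highest there. The median deviation of the 10 proximal tubule markers was 0.10, -0.07 and 0.02, and that of the 4 thick ascending limb markers whose mean reached 100 was 0.38, -0.34 and 0.15. The part of the cell mixture in the Igfbp5 spread was not tested.

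**Figure D2:**
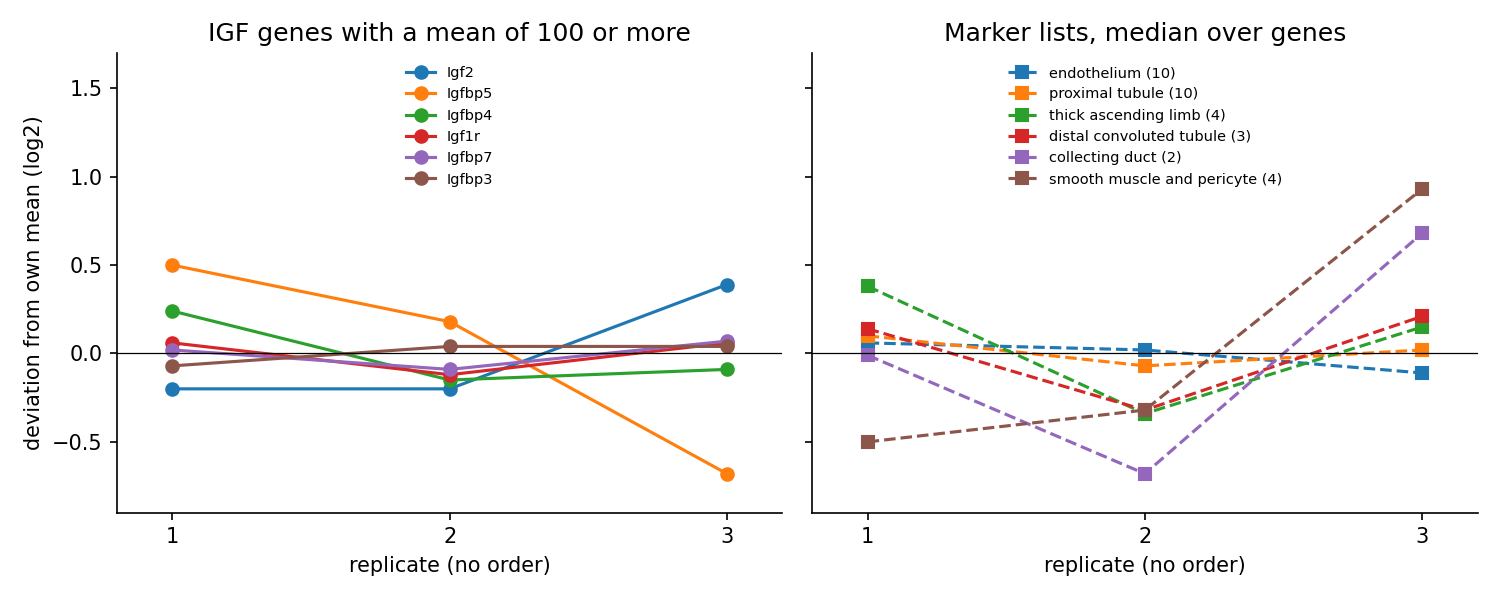
Deviation of each value from the gene's own mean, on the log2 scale, in replicates 1, 2 and 3, which have no order. Left, the 6 IGF genes with a mean of 100 or more. Right, the median over the markers of each cell type with a mean of 100 or more (their number in parentheses). Igfbp5 is lowest in replicate 3 at -0.68, while Igf2 is highest there at 0.39. The markers of smooth muscle and pericytes (0.93), collecting duct (0.68) and distal convoluted tubule (0.21) are also highest there.

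The genes whose 3 deviations lay closest to those of Igfbp5 were Nuak1, a kinase gene, Slc22a30, a gene of the organic ion transporter family, and Gm10874. Nuak1 had log2 signals of 9.00, 8.71 and 7.85, and its largest difference from the deviations of Igfbp5 was 0.0214. Slc22a30 had 9.09, 8.77 and 7.94 (0.0246), and Gm10874 had 7.80, 7.45 and 6.57 (0.0248). Among the 6127 genes whose mean reached 100, with the 10 IGF genes left aside, 23 lay within 0.1 of Igfbp5 in every sample. For Igf2 there were 97, and the closest were Crtc3, a CREB coactivator gene (7.25, 7.25 and 7.83), Eci1, a gene of fatty acid oxidation (7.24, 7.24 and 7.84), and Slc6a19, the neutral amino acid transporter gene of the proximal tubule (7.23, 7.23 and 7.81). With 3 samples such likeness is a description and no measure of shared control.

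Of 7 genes of the ternary complex and of the proteases and their inhibitors, 2 were above and 5 were below, beside 22.9% and 65% of all genes, so the share below was close to the background. Htra1, which encodes a secreted serine protease that cuts IGFBPs, read 8.48 on the log2 scale in all samples (limma's adjusted p was 1.68e-06), and it was the only gene of this list still above with the borrowed spread. Stc1, a stanniocalcin gene, had 6.93 in each (adjusted p = 4.07e-06) and was then neither. Pappa, the gene of PAPP-A, which cuts IGFBP4, had 4.42 in each, and Pappa2, whose product cuts IGFBP3 and IGFBP5, had 4.96 in each. Igfals, the gene of the acid labile subunit that holds IGFs and IGFBP3 in a complex in blood, had 5.56 in each. Each of these 3 genes had the same value in all samples. Stc2, a stanniocalcin gene whose product inhibits PAPP-A, had 4.98, 4.98 and 4.95, and Htra3 had 5.46 in each. These 5 were below, also with the borrowed spread.

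Of 10 genes of other proteins with an IGFBP domain, 2 were above, 6 were below and 2 were neither, which is close to the 22.9% above and 65% below among all genes. Esm1, the gene of endocan, a proteoglycan of endothelium, had log2 signals of 10.50, 10.55 and 10.14, averaging 10.39 ± 0.23 (SD, n = 3), and was above (limma's adjusted p was 0.00195). Ccn2, which encodes connective tissue growth factor, had 8.36, 8.36 and 8.43 (adjusted p = 0.000334). Ccn1 and Ccn3, matricellular protein genes, were neither, at 6.69 ± 0.35 and 6.65 ± 0.27 (SD, n = 3). With the borrowed spread 2 were above and 5 below.

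Inside the cell, genes of the pathway from receptor to Akt were found on both sides of the limit. Of 8 adaptor genes 4 were above and 4 below, beside 22.9% and 65% of all genes. The insulin receptor substrate genes Irs1, Irs2 and Irs4 were below, at 4.99, 6.20 and 5.54 in each sample, as was Shc1, an adaptor gene of the Ras pathway, at 5.95 ± 0.02 (SD, n = 3). Gab1, a docking protein gene, was above, at 7.10, 7.10 and 7.14 (adjusted p = 0.00108 from limma). Grb2, Grb10 and Sos1 were also above, at 6.97, 6.78 and 7.01 in each sample, and were neither with the borrowed spread, so that 1 of 8 was then above, which is no more than the background of 21.1%.

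Of 8 measured genes of PI3K and Akt, 6 were above, 1 was below and 1 was neither, beside 22.9% above and 65% below among all genes. The counts were 6 above and 1 below with the borrowed spread too, beside 21.1% and 62.2%. Pik3ca, a catalytic subunit gene of PI3K, had 7.69, 7.67 and 7.67 (adjusted p = 6.23e-05 from limma), and Pik3r1, the gene of its main regulatory subunit, had 8.00, 8.29 and 8.81 (adjusted p = 0.0285). Pik3r2, another regulatory subunit gene, was below at 5.78 in each, and Pik3cb was neither at 7.03 ± 0.49 (SD, n = 3). With a limit of 200, 0 of these 8 were above. Of 10 measured Akt targets and mTOR genes, 3 were above, 3 were below and 4 were neither, beside the same 22.9% and 65%. Foxo1, a transcription factor gene, was above at 7.51 in each, as were Rheb, an activator gene of mTOR, at 8.54 ± 0.26 (SD, n = 3) and Gsk3b, a kinase gene, at 8.56 in each. Foxo4 at 5.30 ± 0.04, Tsc1 at 6.14 ± 0.04 and Rptor at 6.31 in each were below. Foxo3, Tsc2, Mtor and Rictor were neither, at 7.09 ± 0.36, 6.55 ± 0.09, 6.97 ± 0.16 and 7.06 ± 0.60.

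The genes of the embryonic proteins that bind the Igf2 message were below the limit, with Igf2bp1 at 5.26 and Igf2bp3 at 4.76 in each sample. H19, the imprinted RNA gene beside Igf2, and Igf2bp2 had no probeset of their own. Over the 7 lists together, 18 of 48 measured genes were above and 22 were below, beside 22.9% above and 65% below among all genes. With the borrowed spread, 14 were above and 21 were below, beside 21.1% and 62.2%. The median log2 signal was 6.67 over the 48 genes and 5.88 over all genes, which is a description only.

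**Figure D3:**
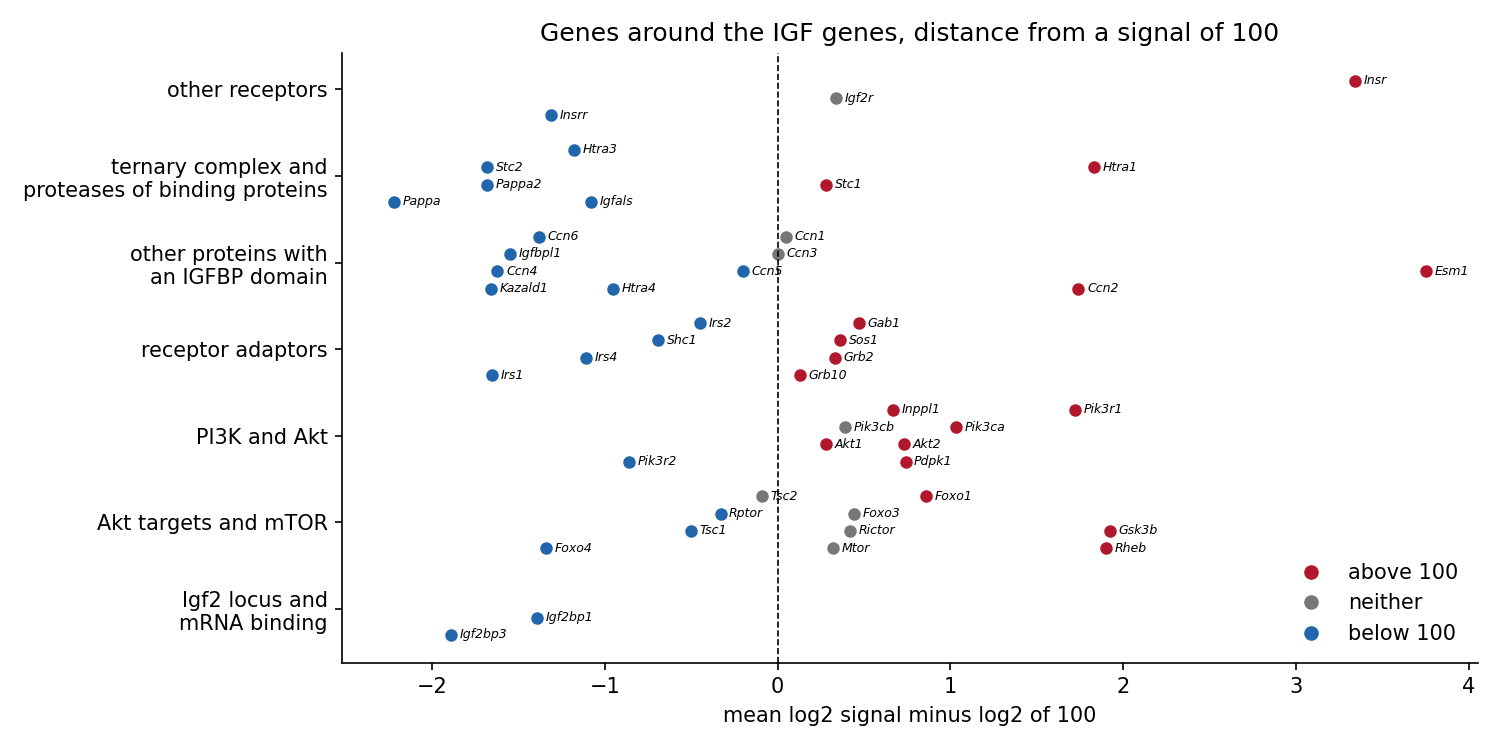
Mean log2 signal of the 48 pathway genes minus log2 of 100, by list (n = 3 samples a gene). The dashed line is the limit, and colours give the call. Insr and Esm1 lie far to the right at 3.34 and 3.75, and Pappa lies far to the left at -2.22.

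**Figure D4:**
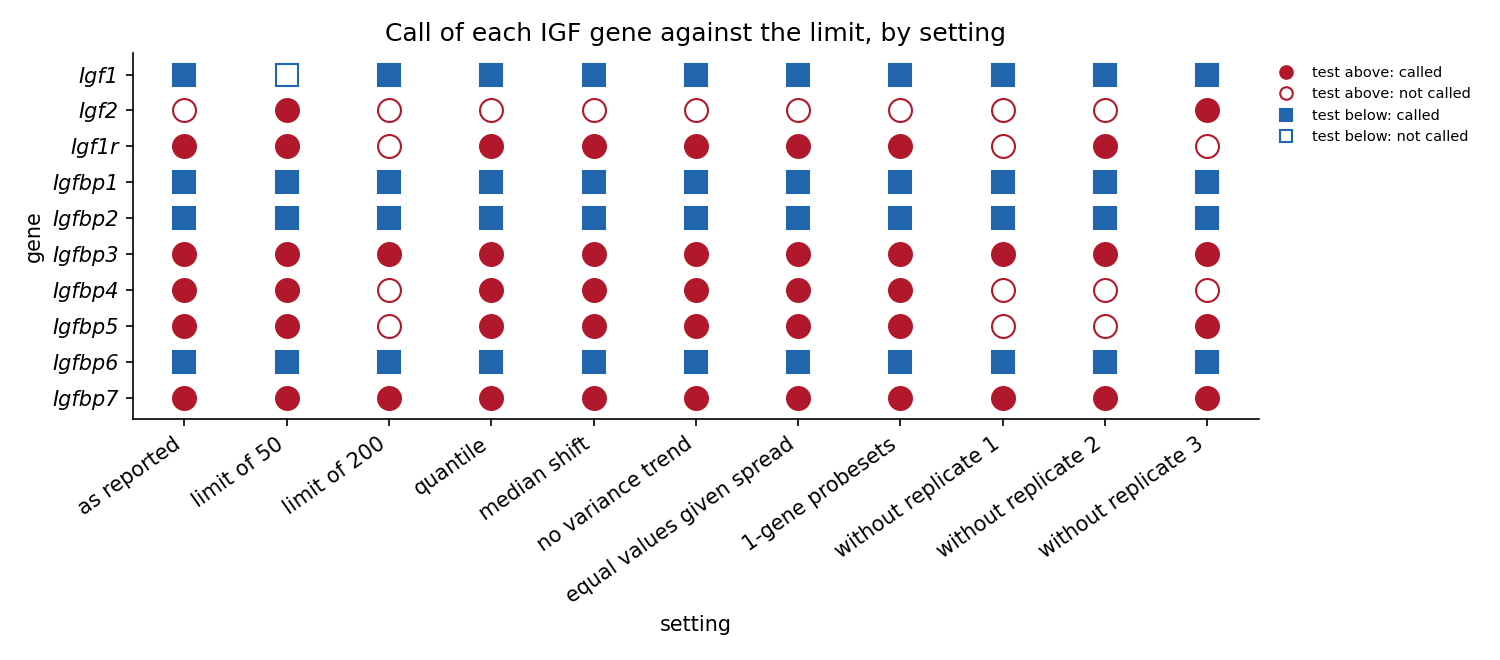
Call of each IGF gene (rows) under the reported test and 10 other settings (columns). Circles are the test for a mean above the limit and squares the test for a mean below it, filled where the adjusted p was under 0.05. Igfbp3, Igfbp7, Igfbp1, Igfbp2 and Igfbp6 are filled throughout, while Igfbp4 is open at a limit of 200 and in all 3 omissions of a sample.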

How the data were processed

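RNA of GFP-positive cells was amplified in 1 round and hybridized to Affymetrix Mouse Gene 1.0 ST arrays. The authors deposited log2 signals per probeset, normalized between arrays. The paper names RMA in GeneSpring GX, and the submitters' processing notes name Affymetrix Expression Console. Which arrays were normalized as a set is not stated in those sources. Median log2 signals were 5.70, 5.70 and 5.66, and pairs of arrays had a Pearson's r of 0.941 to 0.950 over probesets, which are no independent replicates. With arrays there is no read depth, and precision is limited by their number, 3.

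Of 35557 probesets, 21789 were assigned to 1 gene, 1621 to several and 12147 to none, and 21698 matched the reference by gene identifier. A gene was taken at its probeset with the highest mean. The log2 distance from 100 was modelled by its mean alone in limma 3.58.1 under R 4.3.3, with a variance trend (residual df 2, prior df 0.297), after the scripts were tested on simulated data. The simulation held no identical values, so it does not cover the 40.5% of probesets with 3 equal values or the 23.5% with 2. Tables were made with pandas 2.3.3 and numpy 2.4.6 in Python 3.11.15.

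The IGF genes and lists were chosen with earlier results of these data known. Named were the 10 IGF genes, all of the lists of receptors, of partners and proteases and of the Igf2 locus, up to 4 genes in the written order of each other list, genes that make up a count of 5 or fewer, and the 3 genes closest to any IGF gene that ranged by 0.5 or more. Not every such gene is reported. Flt1, Tie1, Eng, Emcn, Icam2, Egfl7, Slc13a1, Slc7a13, Cldn10, Kap, and the promoters and motifs shown, were chosen after values were seen. Alternatives were limits of 50 and 200, a count of genes with every sample on one side, quantile normalization, a shift of each array to a common median, moderation without the trend, other probesets for the adjustment, the borrowed spread, the lowest probeset and omission of each sample. Protein sequences and the study's other samples were not used here.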

Additional observations from a re-analysis of the deposited data

How the results depend on the processing

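The count of IGF genes above the limit was 7 with a limit of 50 and 2 with a limit of 200. It was 6 when genes with all 3 samples at or above 100 were counted without a test. It lay between 2 (without replicate 1) and 4 (without replicate 3) when each sample was left out in turn. The count below was 4 in each of these 3 omissions, 3 with a limit of 50 and 6 with a limit of 200. With a limit of 200, Igf2, Igf1r and Igfbp4 turned to the other side of it (adjusted p = 1 for a mean above, for each), and Igfbp5 was no longer above (0.124). With a limit of 50, Igf1 turned to a mean above it (adjusted p = 1 for a mean below) and Igf2 was called above (0.0145). Over the pathway lists the count above was 32 with a limit of 50 and 5 with a limit of 200. The count below was 15 with a limit of 50 and 37 with a limit of 200. When each sample was left out, 16 to 19 pathway genes were above and 22 were below each time. For single IGF genes, 92 repeats kept their direction and side of the threshold, 8 lost the call, 2 gained it and 4 turned. Under quantile normalization or a median shift, the median SD of the IGF genes was 0.09 or 0.10, against 0.09 as reported. Each IGF gene has 1 probeset, so the choice of probeset changed nothing. No paired analysis was possible because the samples form 1 group.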
